A study of Rattus norvegicus with 18 samples.

Results

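Of 10 genes of late cell division listed by symbol, 9 were measured in cultured neonatal rat heart cells. They were Racgap1, Kif23, Ect2, Aurkb, Birc5, Incenp, Prc1, Kif20a and Cit, out of 12198 genes named on the larger of the 2 array designs used. They were chosen by name, with earlier results of these data known, and every probe that carried such a symbol was taken. This gave 11 probes on the larger design and 6 probes, for 5 of the genes, on the smaller one, which named 6455 genes. Anln, which encodes the ring scaffold anillin, had no probe with that symbol in either table. At 48 h after the change of medium, 6 of the 9 genes were higher than at time zero in unconditioned medium and 5 of 9 in conditioned medium, by 1.88-fold to 4.72-fold, against 2.03% and 5.39% of all probes called higher. Leaving out each array in turn, the counts ran from 2 to 7 and from 0 to 5. Between conditioned and unconditioned medium none of the 9 passed the test, against 0.92% of all probes, and 8 of the 9 changes were below the probe median. Quantile normalization and scaling to the 75th percentile each called 2 of the 9 lower in conditioned medium, against 1.78% and 1.54% of all probes. A higher floor, other filters or no intensity trend called none. Leaving out 3 arrays that stood apart left a lone array of unconditioned medium at 48 h, and 8 of the 9 changes were again below the probe median.

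Cytokinesis is the step that cuts a cell into daughters after its chromosomes have separated. Overlapping microtubules between the separating chromosomes are bundled into a central spindle, which recruits the centralspindlin complex and the chromosomal passenger complex. Centralspindlin positions an exchange factor at the equator, an actomyosin ring contracts there, and the remaining bridge is cut at the midbody. Heart muscle cells of newborn rodents often finish nuclear division without this last step and become binucleate.

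The cells were ventricular cardiomyocytes of newborn rats (day 1), purified on Percoll gradients and kept in cardiac medium before the control dishes were extracted as time zero. In the other dishes the cardiac medium was diluted to 50% with human embryonic stem cell (hESC) medium, either unconditioned or conditioned by stem cells, with fetal bovine serum (FBS) at 5% and horse serum (HS) at 10% in both. RNA was taken 24 h or 48 h later. The larger design, which carries the main tests, held 12 arrays (4 at time zero, 2 for every medium and time), and the smaller design 6 (2 at time zero, 1 for every medium and time). The design counts as many dishes as there are arrays, but the labels tie no array to a dish and name no separate cell preparations, so a p-value here reflects how far arrays of a group differ, and that spread may be technical. Replicate numbers were given here in the order of the records, only to name arrays, and pair nothing. Every comparison with time zero changes both the time in culture and the medium, and these cannot be told apart.

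Promoters were looked at because genes of late mitosis are known to share the cell cycle homology region (CHR), which binds the DREAM and MuvB-FOXM1 complexes, often beside CCAAT boxes, which bind NF-Y. Of the 10 listed genes, 7 had a promoter in the RefSeq table of build GRCr8, and a CHR core (TTTGAA or TTCGAA, on either strand) lay within 250 bases before to 50 bases after the start site of 6 of those 7. Of all 33469 promoters of this length in the table, 19.7% held that core. A CCAAT box (CCAAT, on either strand) was present in 5 of the 7, against 37.5% of all promoters, and both motifs in 4 of the 7, against 7.95%. The motifs did not overlap in the promoters of these genes. Kif20a was the gene with neither TTTGAA nor TTCGAA and held 3 CCAAT boxes, while Cit and Anln held CHR cores and no CCAAT box. Ect2, which did not pass the test in any comparison, held 2 CHR cores and 3 CCAAT boxes. Whether these motifs go with the changes of the genes was not tested. Other forms of the CHR were not searched for. A match is a description of the letters and not evidence of binding.

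The 250 bases before the start site are shown 5′ to 3′ on the gene's strand for Kif23, Prc1 and Birc5, which with Kif20a rose most at 48 h, and for Cit, which did not pass the test in any comparison. CHR cores and CCAAT boxes are in capitals, and a box on the other strand reads ATTGG. The windows are chr8:71320585-71320834 (minus strand) for Kif23, chr1:143659231-143659480 (plus) for Prc1, chr10:103571896-103572145 (plus) for Birc5 and chr12:46424657-46424906 (minus) for Cit.
Kif23: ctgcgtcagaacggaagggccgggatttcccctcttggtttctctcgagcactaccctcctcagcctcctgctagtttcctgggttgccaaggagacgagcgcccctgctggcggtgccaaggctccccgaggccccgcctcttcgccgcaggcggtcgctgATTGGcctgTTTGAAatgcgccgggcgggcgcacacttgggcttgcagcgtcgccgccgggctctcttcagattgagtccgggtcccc
Prc1: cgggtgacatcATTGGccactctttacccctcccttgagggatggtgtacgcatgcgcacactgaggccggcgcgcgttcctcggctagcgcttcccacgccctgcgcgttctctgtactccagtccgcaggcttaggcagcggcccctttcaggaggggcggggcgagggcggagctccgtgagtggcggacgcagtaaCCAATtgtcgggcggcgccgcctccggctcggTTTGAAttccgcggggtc
Birc5: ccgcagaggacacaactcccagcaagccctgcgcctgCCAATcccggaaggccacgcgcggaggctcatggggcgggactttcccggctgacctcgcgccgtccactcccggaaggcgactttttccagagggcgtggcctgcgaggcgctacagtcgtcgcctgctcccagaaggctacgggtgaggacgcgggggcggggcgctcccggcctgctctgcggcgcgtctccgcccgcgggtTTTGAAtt
Cit: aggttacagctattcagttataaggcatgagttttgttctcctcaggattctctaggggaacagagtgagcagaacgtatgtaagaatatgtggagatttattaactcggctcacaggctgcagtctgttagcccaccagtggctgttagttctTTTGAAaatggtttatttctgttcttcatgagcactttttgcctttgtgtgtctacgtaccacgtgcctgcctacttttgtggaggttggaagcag
In Prc1 and Birc5 the CHR core began 18 and 8 bases before the start site, and in Prc1 a CCAAT box began 50 bases before it. In Kif23 the box began 88 and the core 79 bases before the start site, and the core of Cit began 96 bases before it.

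Values below are array intensities scaled to the median of the 12 arrays, which was 96.8, and each log2 change, ± SE, has had the median over the 23694 tested probes in that comparison taken off. The adjusted p-values are from limma with Benjamini-Hochberg adjustment over all those probes, and test the change before that median was subtracted. A probe was called at an adjusted p under 0.05. At 48 h against time zero that median was 0.01 in unconditioned and 0.16 in conditioned medium. Between the media, both times together, it was 0.09. Between scalings it moved by over 0.1 in several comparisons, for example from 0.16 to 0.01 under quantile normalization for conditioned medium at 48 h against time zero. Replicates 4 and 5 of time zero, and replicate 2 of unconditioned medium at 48 h, stood apart, with a 75th percentile of intensity 22.4 to 25.7 times the 25th, against 38.7 to 47.8 on the other 9 arrays of the larger design. Intensities of different probes are not compared, since probes differ in response. In these bulk samples fewer cells of a type and less RNA per cell cannot be told apart.

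Centralspindlin is a complex of the kinesin KIF23 (MKLP1) and the GTPase activating protein RACGAP1. For Kif23 (probe 297043) the time zero arrays gave 801, 486, 687 and 877. In unconditioned medium Kif23 gave 1621 and 2050.2 at 24 h and 2183 and 4025 at 48 h. In conditioned medium it gave 927 and 1196 at 24 h and 2431 and 2279.6 at 48 h. All 8 later arrays were above all 4 time zero arrays. At 48 h Kif23 rose 4.22-fold in unconditioned medium (log2 2.08 ± 0.33, adjusted p = 0.0017) and 3.02-fold in conditioned medium (log2 1.59 ± 0.33, adjusted p = 0.0029).

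Racgap1 (probe 53028) gave 863, 1252, 565 and 833 at time zero. At 24 h it gave 872 and 1194 in unconditioned and 866 and 861 in conditioned medium, within the range of time zero. At 48 h it gave 1621 and 2215 in unconditioned and 1294 and 1543 in conditioned medium, so that the groups did not overlap with time zero. The change at 48 h did not pass the test, with log2 1.15 ± 0.33 in unconditioned (adjusted p = 0.068) and 0.58 ± 0.33 in conditioned medium (adjusted p = 0.22). In unconditioned medium Racgap1 did pass under quantile normalization, scaling to the 75th percentile, and without the 3 arrays that stood apart (adjusted p of 0.036, 0.025 and 0.0049). In conditioned medium it passed without those 3 arrays (log2 0.77, adjusted p = 0.022).

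ECT2 is the guanine nucleotide exchange factor that centralspindlin brings to the equator. Its probe 235030 was dim, at the 35.5th percentile of all probe means. It gave 46.9, 42.1, 63.9 and 36.6 at time zero, 40.3 and a value at the floor of 4.84 in unconditioned medium at 24 h, and 23.6 and 24.5 in conditioned medium at 24 h. The 48 h arrays gave 44.8 and 13.5 in unconditioned and 18.3 and 26.0 in conditioned medium. Both conditioned groups lay below all time zero arrays, as did 5.97% of all probes at 24 h and 7.44% at 48 h, and no change passed the test (at 48 h adjusted p = 0.76 and 0.56). A further Ect2 probe (72031) was at the floor on 9 of 12 arrays, at 316 on time zero replicate 4 and at 137 on unconditioned 48 h replicate 2. It did not pass the filter on low values.

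The chromosomal passenger complex joins the kinase Aurora B (Aurkb) to survivin (Birc5), the scaffold INCENP and borealin (Cdca8), and moves to the central spindle at anaphase. For Birc5 (probe 190009) time zero gave 1129, 625, 839.7 and 1478. Unconditioned medium gave 1596 and 2119 at 24 h and 2269 and 4038 at 48 h, all above time zero. Conditioned medium gave 1435 and 1309 at 24 h, within the time zero range, and 2609 and 2728 at 48 h, above it. Birc5 rose 3.10-fold at 48 h in unconditioned (log2 1.63 ± 0.35, adjusted p = 0.014) and 2.46-fold in conditioned medium (log2 1.30 ± 0.35, adjusted p = 0.018).

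Aurkb (probe 58050) gave 345, 384, 226 and 352 at time zero, 388 and 549 in unconditioned and 409.8 and 342 in conditioned medium at 24 h. The 48 h arrays gave 669 and 828 in unconditioned and 703 and 647 in conditioned medium, all above time zero. Aurkb rose 2.30-fold (log2 1.20 ± 0.31, adjusted p = 0.037) and 1.88-fold (log2 0.91 ± 0.31, adjusted p = 0.043) at 48 h in these media, in that order. Both calls lay close to the threshold.

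Incenp (probe 208021) gave 476, 229, 331 and 541 at time zero, 601 and 807 in unconditioned and 599.9 and 601 in conditioned medium at 24 h. The 48 h arrays gave 800.0 and 1343 in unconditioned and 709 and 725 in conditioned medium. All 8 later arrays were above time zero. Incenp rose 2.75-fold at 48 h in unconditioned medium (log2 1.46 ± 0.35, adjusted p = 0.029). In conditioned medium the change of log2 0.77 ± 0.35 did not pass (adjusted p = 0.14), but did under quantile normalization or scaling to the 75th percentile. Compared directly at 48 h, the 2 media did not differ past the threshold in Incenp (adjusted p = 0.77).

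PRC1 crosslinks the antiparallel microtubules of the midzone, and the kinesin KIF20A (MKLP2) carries the passenger complex onto them. Prc1 (probe 8012) gave 2387, 1074.5, 1753 and 2724 at time zero. At 24 h it gave 3306 and 4487 in unconditioned and 3380.3 and 3697 in conditioned medium. At 48 h it gave 5472 and 9219.8 in unconditioned and 5139.5 and 6281 in conditioned medium. All 8 later arrays were above time zero. Prc1 rose 3.77-fold (log2 1.91 ± 0.37, adjusted p = 0.0064) and 2.71-fold (log2 1.44 ± 0.37, adjusted p = 0.013) at 48 h in unconditioned and conditioned medium.

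Kif20a (probe 183071) gave 427, 216, 243 and 386 at time zero. In unconditioned medium it gave 612 and 572 at 24 h and 1172 and 1796 at 48 h, all above time zero. In conditioned medium it gave 409.6 and 392.2 at 24 h, inside the time zero range, and 920.1 and 989 at 48 h. The increase in unconditioned medium at 48 h was 4.72-fold (log2 2.24 ± 0.33, adjusted p = 0.00094), the largest of the 9 genes in any comparison of the larger design. In conditioned medium Kif20a rose 2.79-fold (log2 1.48 ± 0.33, adjusted p = 0.0048).

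Citron kinase (Cit) acts late, at the contractile ring and the midbody, where it links anillin and the central spindle kinesins. Cit (probe 273025) gave 788, 518, 1213 and 781 at time zero, then 876 and 953 (unconditioned, 24 h), 809 and 882 (conditioned, 24 h), 953 and 1157 (unconditioned, 48 h), and 830.2 and 1008 (conditioned, 48 h). All 8 later arrays lay inside the time zero range. That range was set by replicates 4 and 5, at 518 and 1213, which stood apart. All 8 later arrays were above replicates 3 and 6, at 788 and 781. Its changes at 48 h were log2 0.40 ± 0.32 (adjusted p = 0.69) and 0.05 ± 0.32 (adjusted p = 0.79), with 95% intervals of -0.28 to 1.08 and -0.63 to 0.73. A further Cit probe (56071) was dim, at most 53.6 on any array, and did not pass the filter.

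**Figure D1:**
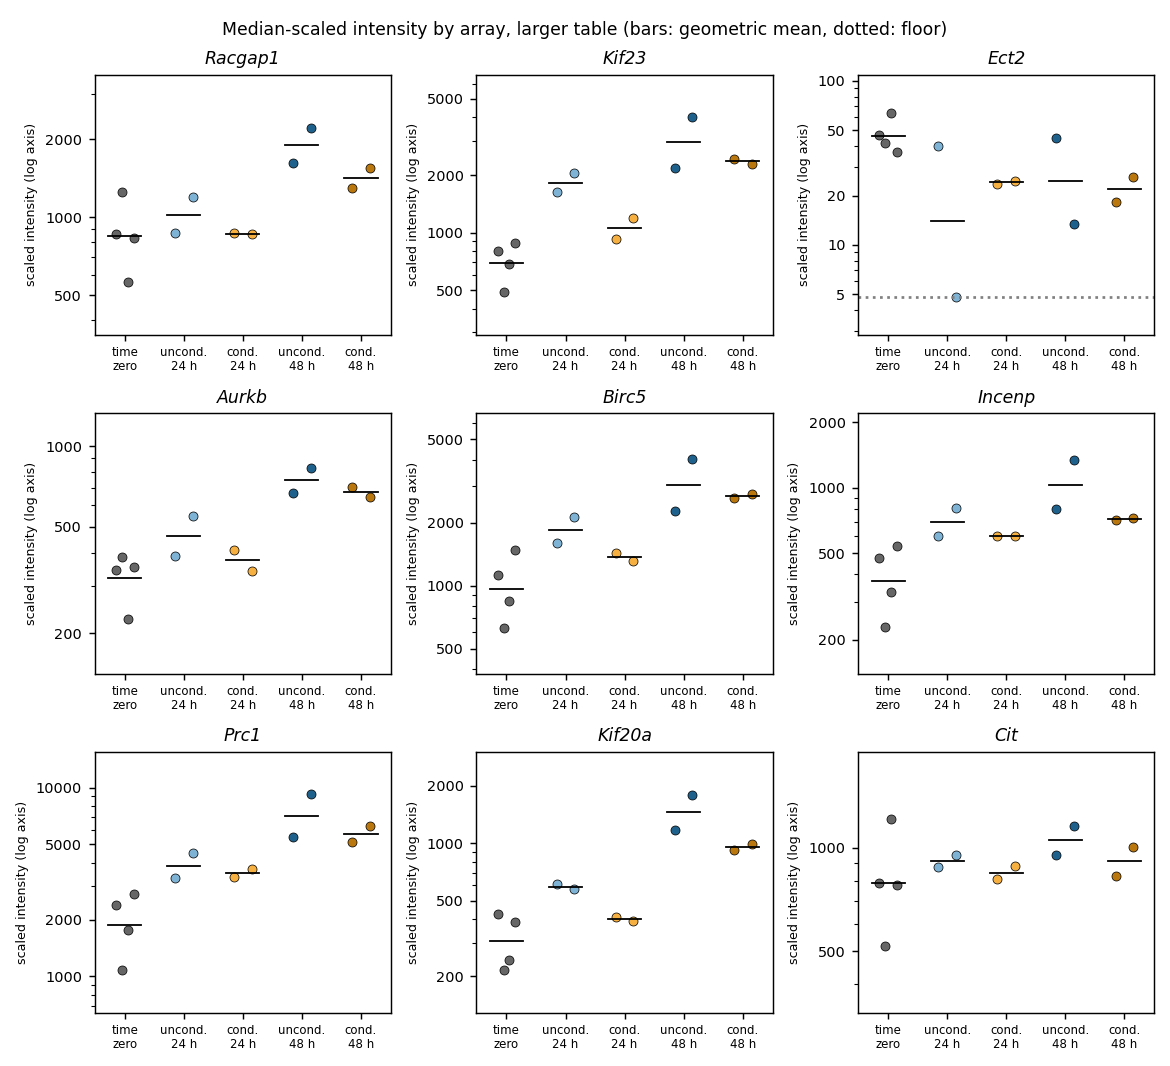
Median-scaled intensity (log axis) of the 9 genes on each of the 12 arrays of the larger design, by group, with the geometric mean as a bar. Kif23, Incenp and Prc1 lie above every time zero array on all 8 later arrays, Cit lies inside the time zero range throughout, and Ect2 lies near the floor (dotted). The Cit range is set by time zero replicates 4 and 5, which stood apart. Arrays of a single later group lay above all time zero arrays for 8.28% to 22.4% of all probes. The share for all 8 later arrays together was not computed.

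The share of genes called can be set against all probes. In unconditioned medium at 48 h, 6 of 9 genes were called higher and none lower, against 2.03% of all probes called higher and 2.9% in either direction. In conditioned medium at 48 h it was 5 of 9, against 5.39% and 6.47%. Both comparisons use the same 4 time zero arrays. The median change of the 9 genes was 1.46 and 0.91 on the log2 scale, where the median of all probes is 0 by definition. Time zero arrays and 48 h arrays did not overlap, with the later ones higher, for 7 of 9 genes in each medium, against 8.28% of all probes in unconditioned and 22.4% in conditioned medium. Of the probes called, 70.0% were higher in unconditioned and 83.4% in conditioned medium, which became 52.2% and 60.7% under quantile normalization. The genes called under that normalization, 7 and 6 of 9, were all higher, against 5.16% and 7.9% of all probes.

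**Figure D2:**
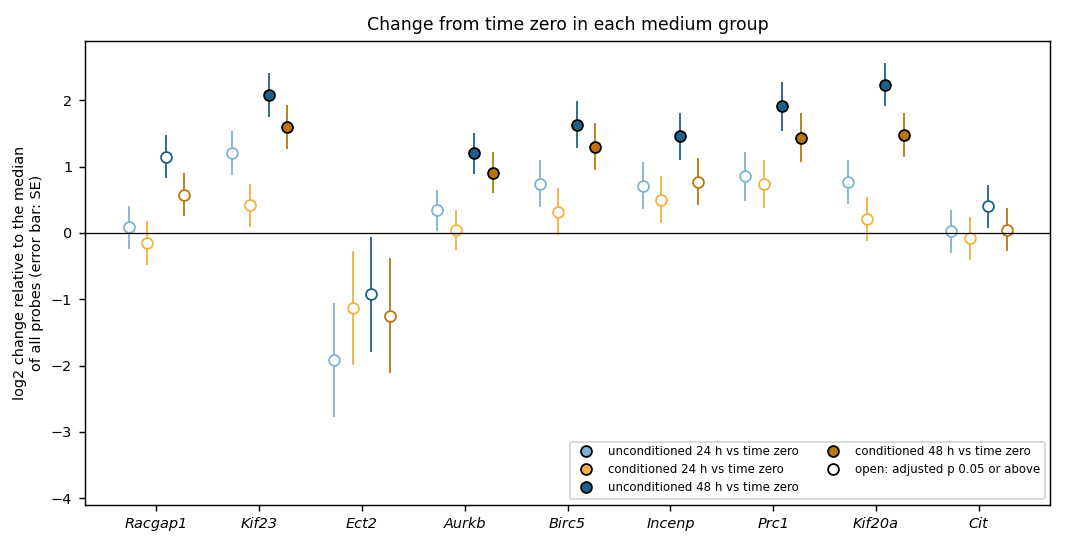
Log2 change from time zero relative to the median of all probes, with SE, for each gene in each medium and time, filled where the adjusted p was under 0.05. Filled points are all at 48 h, from 0.91 (Aurkb, conditioned medium) to 2.24 (Kif20a, unconditioned medium).

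With 2 arrays a group, calls rest on few arrays. Kif20a and Kif23 were the 2 of the 6 genes called in unconditioned medium that remained called with any 1 of the 12 arrays left out, at adjusted p up to 0.029 and 0.046. Without unconditioned 48 h replicate 3 they were the only 2 called, and Prc1, Birc5, Incenp and Aurkb had changes of log2 1.73, 1.42, 1.28 and 1.25 with adjusted p of 0.11, 0.19, 0.25 and 0.21. Without time zero replicate 5, or without any 1 of the 4 arrays of conditioned medium, 4 were called, and without time zero replicate 4 there were 7. In conditioned medium none of the 9 was called without replicate 2 or without replicate 3 at 48 h. The 5 changes were then log2 0.83 to 1.65, with adjusted p of 0.063 to 0.38. With no filter on low values 2 genes were called in each medium, against 0.75% of probes called higher in unconditioned and 2.39% in conditioned medium. Without an intensity trend it was 3 in each, against 1.36% and 3.79%, and with only the groups compared in the fit it was 2 in unconditioned medium, against 0.519%.

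At 24 h none of the 9 genes was called by limma in either medium, against 0.815% of all probes in unconditioned and 3.17% in conditioned medium. At an unadjusted p under 0.05 there were 5 of 9 in unconditioned and 1 of 9 in conditioned medium, against 9.88% and 15.3% of all probes. In unconditioned medium 6 of 9 genes had both 24 h arrays above all time zero arrays (Kif23, Aurkb, Birc5, Incenp, Prc1 and Kif20a), against 13% of all probes. In conditioned medium 3 of 9 did (Kif23, Incenp and Prc1), against 19.3%. Kif23 came nearest to a call, with log2 1.20 ± 0.33 in unconditioned medium (adjusted p = 0.062). It passed under quantile normalization, scaling to the 75th percentile, a stricter filter, without the 3 arrays that stood apart, and without time zero replicate 6 or either unconditioned 48 h array. Without any one of these 3 arrays 1 gene was called, Kif23.

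From 24 h to 48 h no gene of the 9 was called in either medium, against 0% and 0.00422% of all probes. At an unadjusted p under 0.05 there were 2 of 9 in unconditioned and 4 of 9 in conditioned medium, against 5.21% and 2.52% of all probes. The changes of Kif20a were log2 1.47 ± 0.38 and 1.26 ± 0.38, and those of Kif23 were 0.88 ± 0.38 and 1.17 ± 0.38. Both 48 h arrays were above both 24 h arrays for 6 of 9 genes in unconditioned medium and for 7 of 9 in conditioned medium, against 8.82% and 25.6% of all probes. Under quantile normalization 2 genes were called higher in unconditioned medium, against 0.0802% of all probes. When only the groups compared were fitted, 6 were called higher in conditioned medium, against 3.66%.

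By its title, the study asked whether factors secreted by stem cells make these cells proliferate. Over both times, conditioned against unconditioned medium called none of the 9 genes by limma, against 0.92% of all probes. At an unadjusted p under 0.05 there was 1 of 9 (Kif20a), against 11% of all probes. For no gene were all conditioned arrays on one side of all unconditioned arrays, as was so for 8.63% of all probes (higher) and 2.78% (lower). The changes of 8 genes were below the probe median, and the median of the 9 was -0.39. Kif20a had log2 -0.67 ± 0.27 (adjusted p = 0.44, 95% interval -1.23 to -0.10) and Kif23 -0.65 ± 0.27 (adjusted p = 0.47, interval -1.22 to -0.08). Before the probe median was taken off, Kif23 had an unadjusted limma p of 0.052. Incenp, Racgap1, Birc5, Prc1, Aurkb and Cit had changes from -0.46 to -0.24, and Ect2 had 0.22 ± 0.71. The largest increase that the 95% intervals allowed was 0.32 on the log2 scale among the 8 genes other than Ect2, which allowed up to 1.71. These intervals are not adjusted for the number of probes, have the probe median taken off, and rest on a spread that may be technical. On the smaller design the change of Cit was log2 1.30, above that bound, while those of Prc1, Racgap1, Aurkb and Incenp were below 0.

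At 24 h both conditioned arrays were below both unconditioned arrays for Racgap1, Kif23, Birc5 and Kif20a, against 22.4% of all probes. At 48 h this held for Racgap1, Incenp and Kif20a, against 11.6%. None of the 9 was called at 24 h or at 48 h, against 0.245% and 0.148% of all probes, and none had an unadjusted p under 0.05, against 5.29% and 8.69%. The medians over the 9 genes were -0.25 at 24 h and -0.50 at 48 h. The difference between the medium effects at 48 h and 24 h was tested directly, and no probe of all 23694 was called, while 2.19% of them and none of the 9 genes had an unadjusted p under 0.05.

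The count called between the media depends on the scaling and on the arrays that stand apart. Under quantile normalization Kif20a (log2 -0.72, adjusted p = 0.033) and Kif23 (-0.70, adjusted p = 0.014) were called lower in conditioned medium, against 1.78% of all probes called lower. The same 2 genes were called with arrays scaled to the 75th percentile, against 1.54%. Without the 3 arrays that stood apart, Kif23 (-0.76, adjusted p = 0.01), Kif20a (-0.72, adjusted p = 0.0081) and Incenp (-0.54, adjusted p = 0.045) were called lower, against 3.58%. With both changes together, tried after the data were seen, Birc5 and Racgap1 were called lower too, 5 of 9 against 4.62%. In each of these settings 8 of the 9 changes were below 0, Ect2 being the exception, and no gene was called higher.

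**Figure D3:**
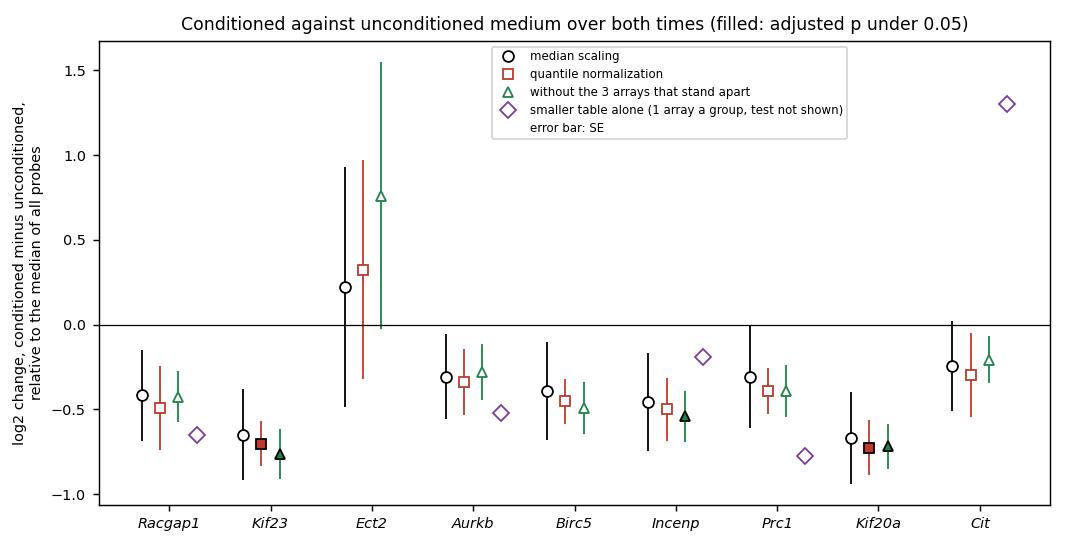
Log2 change of conditioned against unconditioned medium over both times, relative to the median of all probes, for each gene under median scaling, quantile normalization, without the 3 arrays that stood apart, and on the smaller design. Bars are SE, and filled symbols, drawn for the larger design only, have an adjusted p under 0.05: Kif20a and Kif23 in 2 settings and Incenp in 1, all below 0.

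The smaller design carried Prc1, Racgap1, Aurkb, Incenp and Cit. Its intensities have their own scale, with a median of 301.6, and are not compared with those of the larger design. Prc1 (probe 3025) gave 2961 and 4082 at time zero, 6518 (unconditioned) and 3298 (conditioned) at 24 h, and 16091 and 6951 at 48 h. Racgap1 (probe 5136) gave 1009.8 and 1498 at time zero, 1675 and 906 at 24 h, and 4502 and 2152 at 48 h, in the same order of media. Prc1, Racgap1, Aurkb and Incenp were higher on the unconditioned 48 h array than on any other array, and their conditioned 48 h array was above both time zero arrays.

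Aurkb (probe 12129) gave 303 and 279 at time zero, 481 and 319.7 at 24 h, and 1076 and 500.0 at 48 h. Incenp (probe 16026) gave 563 and 589 at time zero, 775 and 655 at 24 h, and 1506 and 874 at 48 h. With 1 array in each medium group these values carry no test here. The log2 changes from time zero at 48 h were 2.13 for Prc1, 1.79 for Racgap1, 1.81 for Aurkb and 1.31 for Incenp in unconditioned medium. In conditioned medium they were 1.26, 1.07, 1.05 and 0.87.

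Between media over both times, the changes on the smaller design were log2 -0.77 for Prc1, -0.65 for Racgap1, -0.52 for Aurkb and -0.19 for Incenp. Their size depends on the scaling. Under quantile normalization Prc1 gave 13895 (unconditioned) and 8199 (conditioned) at 48 h, a smaller gap than above. Incenp then gave 733 and 739 at 24 h. Cit went the other way on the smaller design. Its probe 12946 gave 893 and 782 at time zero, 952 (unconditioned) and 1873 (conditioned) at 24 h, and 1031 and 2027 at 48 h, so both conditioned arrays were above the other 4. The change of Cit between media was log2 1.30 on the smaller design against -0.24 ± 0.27 on the larger one, although both probes are listed under the same transcript record. The further Cit probe of the smaller design (10107) was near the floor of 15.1, at 24.2 or below.

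**Figure D4:**
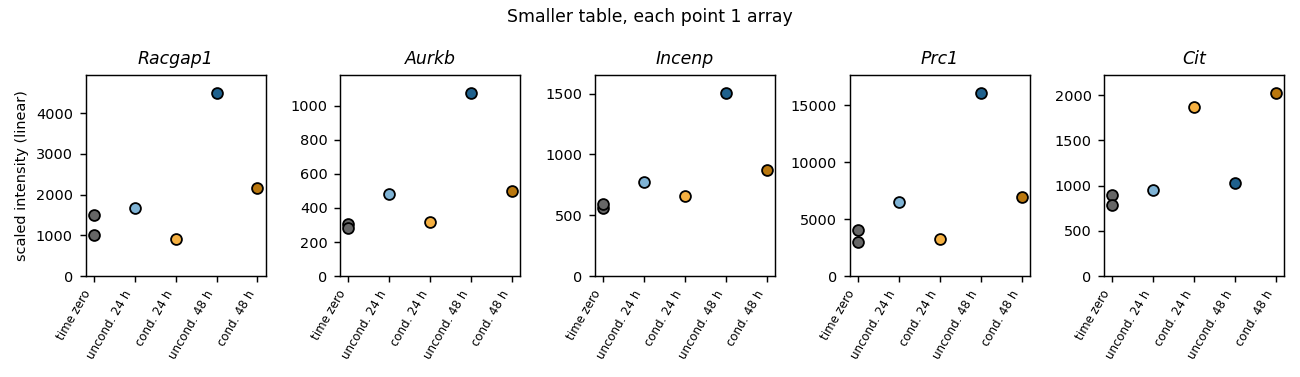
Scaled intensity (linear axis from 0) of the 5 genes on the smaller design, each point 1 array, 2 at time zero and 1 in each other group. Prc1, Racgap1, Aurkb and Incenp peak on the unconditioned 48 h array, while Cit is highest on the 2 conditioned arrays, at 1873 and 2027.

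Across the 12 arrays of the larger design the genes followed each other to different degrees. Pearson's r with the mean of the other 8 genes was 0.99 for Kif20a, 0.95 for Birc5, 0.94 for Prc1 and Kif23, 0.88 for Incenp and 0.84 for Aurkb. It was 0.71 for Racgap1, 0.51 for Cit and -0.55 for the dim Ect2. These arrays share 5 groups, so such values largely describe the groups. The genes outside the list most like the mean of the 9, out of 9944 genes ranked by Pearson's r over the 12 arrays, were Hmmr, Tacc3, Kif22, Cep55 and Ccnb1, each with r of 0.98, against a median of 0.21 over all ranked genes. All 5 are known as genes of the mitotic spindle, the midbody or mitotic entry.

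Other genes of the same steps were taken from lists of names, chosen with earlier results of these data known. Among other midzone and passenger genes 9 were tested. At 48 h 7 of 9 rose in unconditioned medium (Cdca8, Kif4a, Kif20b, Plk1, Cep55, Kif18b and Nusap1, median of the list 1.81) and 6 of 9 in conditioned medium (the same genes without Kif20b, median 1.28), against 2.03% and 5.39% of all probes called higher. Leaving out 1 array took these counts as low as 1 and 0. Cep55, the midbody organiser that recruits the abscission machinery, rose by log2 2.24 ± 0.32 (adjusted p = 0.00089) and 1.69 ± 0.32 (adjusted p = 0.0016). Cdca8, the borealin subunit of the passenger complex, rose by 1.91 ± 0.39 (adjusted p = 0.0099) and 1.79 ± 0.39 (adjusted p = 0.0048). The 2 genes of the list not called in either medium were the microtubule plus end genes Clasp1 and Clasp2. Between the media none of the 9 was called, with a median of -0.49, and Nusap1, Plk1 and Kif4a had the smallest p, with -0.81, -0.53 and -0.57 (adjusted p of 0.31, 0.59 and 0.64).

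Genes of the contractile ring, its regulators and the septins are used in interphase too, and 22 were tested. At 48 h 2 rose in unconditioned medium, Septin11 (1.05 ± 0.27, adjusted p = 0.043) and Arhgap11a (1.75 ± 0.31, adjusted p = 0.0037). In conditioned medium 6 rose: Septin9, Arhgap11a, Septin11, Septin2, the non-muscle myosin heavy chain Myh9 and cofilin (Cfl1). Myh9, Cfl1 and Septin9 had risen there at 24 h as well. Of all probes, 2.03% and 5.39% were called higher at 48 h in unconditioned and conditioned medium. At 24 h in conditioned medium 3.17% were called in either direction. Medians of this list were 0.51 and 0.64 at 48 h, below those of the 9 genes. Septin9, a filament forming GTPase, rose by 2.62 ± 0.37 at 48 h in conditioned medium (adjusted p = 0.00014). Septin9 was also the 1 gene of the 22 called between media over both times, against 0.92% of all probes. It was 1.41 ± 0.31 higher in conditioned medium (adjusted p = 0.022). That call was lost, with adjusted p of 0.075 to 0.14, without any 1 of the 4 conditioned arrays, either unconditioned 24 h array or unconditioned 48 h replicate 2.

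Of 15 abscission genes tested, which include the ESCRT-III subunits that cut the bridge, Chmp1a fell by 1.33 on the log2 scale in unconditioned medium at 48 h (SE 0.34, adjusted p = 0.046). Spast, which severs midbody microtubules, rose by 1.02 ± 0.34 in conditioned medium (adjusted p = 0.043). That 1 call in 15 is near the share of all probes called there, 6.47%, and the Chmp1a call in unconditioned medium stands against 2.9%. The Chmp1a call held without time zero replicate 4 or unconditioned 48 h replicate 3 and was lost without each of the other 10 arrays (adjusted p of 0.07 to 0.39). The Spast call was lost without each conditioned array or time zero replicate 3 or 5 (0.065 to 0.42). Between media none of the 15 was called, 14 of 15 had changes above the median of all probes, and Chmp4c, Chmp1b and Chmp1a had the smallest p (0.80, 0.82 and 0.73, adjusted p of 0.18, 0.2 and 0.24).

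Among 7 transcription regulators of late cell cycle genes 1 was called, Foxm1, in conditioned medium at 48 h, against 6.47% of all probes. Its change was 0.93 ± 0.30 there (adjusted p = 0.035) and 0.85 ± 0.30 in unconditioned medium (adjusted p = 0.17). The call was lost without any 1 of the 4 conditioned arrays or time zero replicate 3 (0.056 to 0.39). E2f1, Lin54 and Foxm1 had the smallest p between media, and none was called (-0.41, -0.38 and 0.15, adjusted p of 0.77, 0.78 and 0.8). Of 15 mitosis genes outside cytokinesis, 12 rose at 48 h in each medium, against 2.03% and 5.39% of all probes, but none of the 12 remained called in unconditioned medium without its 48 h replicate 3, nor in conditioned medium without its 48 h replicate 2 or without replicate 3. Ccnb1 rose by 1.94 and 1.23, Cdk1 by 1.83 and 1.69 and Mki67 by 1.41 and 1.42, in unconditioned and conditioned medium (adjusted p of 0.0037 and 0.02, 0.021 and 0.011, 0.024 and 0.0067). The others that rose in both were Ccna2, Top2a, Bub1, Bub1b, Aurka, Pbk, Cenpf and Ube2c, with Kif11 in unconditioned and Cdc20 in conditioned medium. The medians of this list were 1.71 and 1.27. Between media 0 of the 15 were called and all 15 lay below the probe median (list median -0.29). Pbk, Kif11 and Ccnb1 had the smallest p there (-0.92, -0.74 and -0.64, adjusted p of 0.24, 0.4 and 0.51).

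The calls of these lists also rested on few arrays. Without unconditioned 48 h replicate 3, Cep55 was the 1 midzone and passenger gene still called in unconditioned medium, and Septin11 and Arhgap11a were not. Without conditioned 48 h replicate 2 or 3, Septin9 was the 1 ring gene still called in conditioned medium. Without replicate 3 none of the 6 midzone and passenger genes was. Without either conditioned 24 h array none of the 3 ring genes called at 24 h remained.

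Heart muscle markers were strong on all arrays, with Tnnt2 between 15052 and 36743. None of the 8 muscle markers tested was called at 48 h in either medium. Their summed level ran from 120312 to 250138 at time zero, 153861 to 201188 in unconditioned and 183463 to 190499 in conditioned medium at 48 h. Apart from Ryr2 (median 776), these markers had medians close together, from 22921 (Tnni3) to 29394 (Myl2). Whether such bright probes were saturated was not tested. Their sums also depend on the array scaling, with array medians from 75.9 to 143.6 at time zero. They are no measure of muscle content. Of the lists for other cells, the endothelial and fibroblast sums were higher at 48 h than at time zero in both media, without overlap, and the others differed in course. Each call at 48 h below stands against 2.9% of all probes called in unconditioned and 6.47% in conditioned medium. The summed level of 7 endothelial markers was 1048 to 1562 at time zero, 1636 to 2249 and 1909 to 2097 at 24 h, and 2400.4 to 3758 and 3159.7 to 3410.0 at 48 h in unconditioned and conditioned medium. Of these 7, 5 and 6 were called higher at 48 h and 1, Kdr, lower.

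The summed level of 9 fibroblast markers was 3794 to 6907 at time zero, 7557 to 8567 and 11417 to 13664 at 24 h, and 8843 to 14327 in unconditioned and 16351 to 16579.9 in conditioned medium at 48 h. Of 5 tested, 2 were called higher in each medium (Col1a1 and Postn, and Postn and Fn1). The defining fibroblast genes Pdgfra, Tcf21, Dcn and Lum were dim, at most 51.6 on any array. The sum rested mainly on Col1a1, Fn1 and Col1a2, with medians of 3029, 2690 and 1564, against 422 for Postn and 190 for Ddr2. For 9 smooth muscle and pericyte markers the sum was 22026 to 38582 at time zero, 55863 to 61475 and 40048 to 42705 at 24 h, and 37620.3 to 52177 and 52502 to 55061 at 48 h, so that it was highest in unconditioned medium at 24 h. At 48 h 3 of 8 tested were called higher in each medium. The leukocyte sum was 1168 to 1648 at time zero, and 1256 to 2169 and 998 to 1027 at 48 h. The sum of 2 erythroid markers was 102 to 778, and 123 to 362 and 98.9 to 116. Of 9 leukocyte markers Lyz2 was at the floor on all 12 arrays and Ptprc on 7, and of 6 tested Cd14 was called higher in unconditioned and Cd74 lower in conditioned medium at 48 h. Between the media over both times, Fn1 was called higher and Cd74 lower in conditioned medium, against 0.92% of all probes called. The list medians were -0.26 for muscle, -0.28 for fibroblast, 0.02 for endothelial, -0.19 for smooth muscle and pericyte, and -0.56 for leukocyte markers. The 1 erythroid marker tested had -0.36. The part of these cells in the changes of the cytokinesis genes was not tested.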

How the data were processed

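RNA behind the 18 arrays, from cultured rat heart cells, was extracted with Trizol LS, labelled with biotin by the CodeLink iExpress kit and hybridised to 1-colour arrays, per the labels' protocols. The deposited tables hold 1 linear intensity per probe and array. Scanner, background correction and normalization by the authors are not given in the sources used here. The larger table (12 arrays, medians 70.3 to 143.6) and the smaller (6 arrays, 213.8 to 415.7) were kept apart.

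Each array was scaled to the table's median, values under 0.05 of it were raised to that floor, and log2 was taken. Probes whose mean lay above the 30th percentile were tested, 23694 of 33849 and 6934 of 9906. All 12 arrays entered 1 fit with lmFit and eBayes (trend on) of limma 3.58.1, under R 4.3.3, with Benjamini-Hochberg adjustment over all probes tested. Figures and promoter scans used Python 3.11.15 and matplotlib 3.10.9.

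Probes were named by the platform annotation: 16753 of the larger table have 1 gene symbol, 165 several and 16931 none, and of the smaller 7290, 87 and 2529. All members are reported. The 5 other genes named for likeness were those with the highest Pearson's r, and of each list the genes that passed the test are named or counted, with the 3 of smallest p where none did. Members and lists were chosen with earlier results of these data known. Alternatives were other scalings, floors, filters, probe averaging, fits and arrays left out. The scripts were tested on simulated data. Promoters are from RefSeq, build GRCr8.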

Additional observations from a re-analysis of the deposited data

How the results depend on the processing

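Of the 9 genes, the count called between conditioned and unconditioned medium over both times was 2 under quantile normalization, 2 with scaling to the 75th percentile, 3 without the 3 arrays that stood apart, 5 with quantile normalization and without those arrays (chosen after seeing the data), and 1 of 5 on the smaller design, whose medium groups hold 1 array each and whose spread comes from its 2 time zero arrays, so that its counts are no check. At 24 h it was 1 without the 3 arrays and 1 with both changes. For unconditioned medium at 24 h against time zero it was 1 with a filter at the 50th percentile, 2 under quantile normalization, 2 with both changes, 1 with the 75th percentile and 1 without the 3 arrays, and 0 to 1 leaving out each array. For conditioned medium at 24 h it was 1 under quantile normalization and 1 with both changes. At 48 h against time zero, unconditioned medium gave 2 with no filter, 3 with no intensity trend, 2 with only the groups compared, and 2 to 7 leaving out each array, and conditioned medium gave 2 with no filter, 3 with no trend, 0 on the smaller design and 0 to 5 leaving out each array. From 24 h to 48 h, unconditioned medium gave 2 under quantile normalization, 4 with both changes and 1 without the 3 arrays, and conditioned medium 6 with only the groups compared, 3 with both changes and 2 without the 3 arrays. Cit changed sign between media on the smaller design (1.30 over both times, 1.26 at 24 h, 1.35 at 48 h) and at 48 h with both tables in 1 fit (0.11). Against time zero it changed sign in conditioned medium at 24 h (0.34 with both tables, 0.14 with both changes, 1.41 on the smaller design) and at 48 h with its probes averaged (-0.60). Ect2 at 48 h in unconditioned medium ran from -2.00 to 0.14 leaving out each array. The cause was not tested. A lone array left in a group is assumed to vary like the other groups. No paired analysis was possible because the labels carry no replicate numbers, and those used here only name arrays. Ect2 lies near the floor, which limits its precision.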
